A study of Mus musculus with 39 samples.

Results

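Dbp (ENSMUSG00000059824) encodes a transcription factor whose mRNA swings strongly over the day in most mouse tissues. Its level in a tissue sample therefore follows the local state of the circadian clock. Among 21 libraries of mouse proximal small intestine with title numbers 49 to 69, the 7 with the most Dbp (Dbp-high) and the 7 with the least (Dbp-low) were compared, which is 14 of the 39 libraries of the series. Dbp was ranked by CPM, here the read count of a gene scaled to the total gene counts of its library. The classes were therefore chosen from a measured value and are not groups of the study, and Dbp itself was not tested. The other 7 of these 21 libraries are called the middle class, the 21 together the second set, and the 18 libraries with title numbers 1 to 18 the first set.

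The libraries came from scrapings of the proximal small intestine of female C57BL/6JRccHsd mice aged 42 days. Villus enterocyte markers summed to 65517 to 88035 CPM in Dbp-high and 59730 to 86839 CPM in Dbp-low libraries, with all 12 markers detected. Marker sums and levels of genes other than Dbp carry a further scaling of CPM, named below. Pups had been weaned on day 21 and fed for 3 weeks on a diet with 16% of energy from galactose and 16% from glucose (galactose diet), 32% from lactose (lactose diet) or 32% from glucose (glucose diet). All diets also held 32% starch, 3% fructose, 20% protein and 20% fat, and all mice were killed in the fed state. The Dbp-high class held 5 lactose and 2 glucose mice, the middle class 4 galactose, 2 lactose and 1 glucose mouse, and the Dbp-low class 3 galactose and 4 glucose mice. Mice are numbered within a diet in accession order, and each library is taken as 1 mouse. The clock time at which a mouse was killed is not given in the sources used here, nor is what the title numbers follow.

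The mammalian clock is a loop of transcription. CLOCK or NPAS2 pairs with ARNTL (BMAL1) and binds E-boxes to drive the Per, Cry, Nr1d (REV-ERB), Ciart and Dbp genes. PER and CRY proteins then silence their own drivers, and NR1D1 and NR1D2 compete with ROR receptors at response elements (ROREs) that control Arntl, Npas2 and Nfil3. DBP, TEF and HLF are activators of the PAR bZIP family that bind D-boxes, which NFIL3 occupies as a repressor. In the small intestine, the clock and the time of feeding set daily rhythms of nutrient transport and of renewal.

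The promoters of 5 clock genes called in both sets below show these elements as short words, given in capitals. They were chosen because they hold a word of the kind described. Each window runs from 250 bases before to 50 after a gene's start, from RefSeq, build GRCm38.p6, 5′ to 3′ on the gene's strand. Words were searched on both strands as CACGTG (E-box), TTATGTAA or TTACGTAA (D-box) and TAGGTCA or TGGGTCA (RORE). Of 32851 such windows, 7.15% held this E-box, 1.06% this D-box and 6.45% this RORE, and the 3 words share no overlap in the windows shown. Per3 at chr4:151044616-151044915, minus strand, held 2 D-boxes, 205 and 158 bases before the start. Ciart at chr3:95882179-95882478, minus strand, held 3 E-boxes, 116, 58 and 44 bases before it. Tef at chr15:81802423-81802722, plus strand, held 1 E-box 127 bases before it. Arntl at chr7:113207261-113207560, plus strand, held a RORE 30 bases after the start, and Nfil3 at chr13:52980990-52981289, minus strand, held 1 in reverse 12 bases before it.
Per3: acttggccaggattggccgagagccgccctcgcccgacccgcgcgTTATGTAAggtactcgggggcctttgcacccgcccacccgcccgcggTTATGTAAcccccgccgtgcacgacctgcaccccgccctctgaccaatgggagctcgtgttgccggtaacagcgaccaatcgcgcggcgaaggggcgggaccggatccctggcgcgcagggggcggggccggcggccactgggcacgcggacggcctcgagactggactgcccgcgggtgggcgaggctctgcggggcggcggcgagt
Ciart: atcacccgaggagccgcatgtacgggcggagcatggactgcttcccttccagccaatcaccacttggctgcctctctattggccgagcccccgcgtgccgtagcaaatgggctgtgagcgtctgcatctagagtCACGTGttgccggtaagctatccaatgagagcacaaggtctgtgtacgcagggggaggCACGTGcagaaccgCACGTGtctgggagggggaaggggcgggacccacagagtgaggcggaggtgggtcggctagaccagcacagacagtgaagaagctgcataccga
Tef: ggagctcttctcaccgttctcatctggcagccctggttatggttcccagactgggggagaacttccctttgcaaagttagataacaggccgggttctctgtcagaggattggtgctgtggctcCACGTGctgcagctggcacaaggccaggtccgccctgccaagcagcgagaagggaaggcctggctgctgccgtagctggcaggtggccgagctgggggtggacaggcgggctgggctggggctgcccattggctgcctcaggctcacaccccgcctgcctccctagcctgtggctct
Arntl: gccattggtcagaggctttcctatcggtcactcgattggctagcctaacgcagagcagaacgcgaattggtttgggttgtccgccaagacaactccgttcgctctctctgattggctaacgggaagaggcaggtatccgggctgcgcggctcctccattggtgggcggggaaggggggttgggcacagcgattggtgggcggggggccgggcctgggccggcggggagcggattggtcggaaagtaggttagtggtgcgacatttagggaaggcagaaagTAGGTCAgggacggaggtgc
Nfil3: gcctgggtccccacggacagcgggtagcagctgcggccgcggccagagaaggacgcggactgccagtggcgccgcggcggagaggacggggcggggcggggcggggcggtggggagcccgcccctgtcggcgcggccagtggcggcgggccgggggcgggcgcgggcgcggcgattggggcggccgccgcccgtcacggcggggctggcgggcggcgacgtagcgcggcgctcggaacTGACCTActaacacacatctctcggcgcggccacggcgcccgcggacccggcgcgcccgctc
These matches describe the letters in the windows. No binding was measured. Of 30 clock genes searched, 24 had at least 1 window, and 5 of these held an E-box, 2 a D-box and 2 a RORE. Over all 27025 genes with a window, 8.09% held this E-box, 1.23% this D-box and 7.35% this RORE, so the RORE count is near that of all genes.

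Before the results, several libraries stood apart. Total gene counts were 20220361 to 21212799 in Dbp-high, 19980957 to 20976107 in middle and 20404192 to 20907407 in Dbp-low libraries. Ifit3, an interferon-stimulated gene, exceeded 100 CPM in 1 Dbp-high library (lactose 9), in 4 Dbp-low libraries (galactose 8 and 9, glucose 8 and 9) and in no middle library. Pancreas markers summed to 629 CPM in glucose 13 (Dbp-high), to 2524 CPM in galactose 7 (middle) and to 67689 CPM in galactose 4 (first set). Over 25 measures of library quality and marker sums, only 2 differed between the classes after adjustment, by an exact two-sided permutation test over 3432 assignments. Distal small intestine genes summed to 979 to 1656 CPM (median 1148) in Dbp-high and 663 to 1081 CPM (median 834) in Dbp-low mice, a difference of 371 (p = 0.00291, adjusted 0.0437, exact permutation). Red blood cell markers summed to 6.69 to 19.8 CPM (median 14.8) in Dbp-high and 4.05 to 9.66 CPM (median 5.80) in Dbp-low mice, a difference of 7.41 (p = 0.00350, adjusted 0.0437, exact permutation). The part of these measures in the results was not tested, and diet differed between the classes as well.

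Dbp spanned 113 to 199 CPM in Dbp-high mice (median 151), 75.8 to 104 CPM in middle mice (median 89.2) and 2.01 to 59.5 CPM in Dbp-low mice (median 10.2). The last mouse inside the high class, glucose 7, had 113 CPM and the first outside it, galactose 7, had 104 CPM. At the other limit, glucose 10 (Dbp-low) had 59.5 CPM and glucose 12 (middle) had 75.8 CPM. Dbp varied over a similar range in the first set, from 0.928 to 195 CPM (median 31.6). Title numbers run in groups of 3 neighbours with 1 mouse of each diet. In the second set the lactose mouse had the highest Dbp of its 3 in 7 of 7 such triplets, and in the first set in 2 of 6, where the glucose mouse was highest in the other 4. Fewer cells and less RNA per cell cannot be told apart in bulk scrapings.

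**Figure D1:**
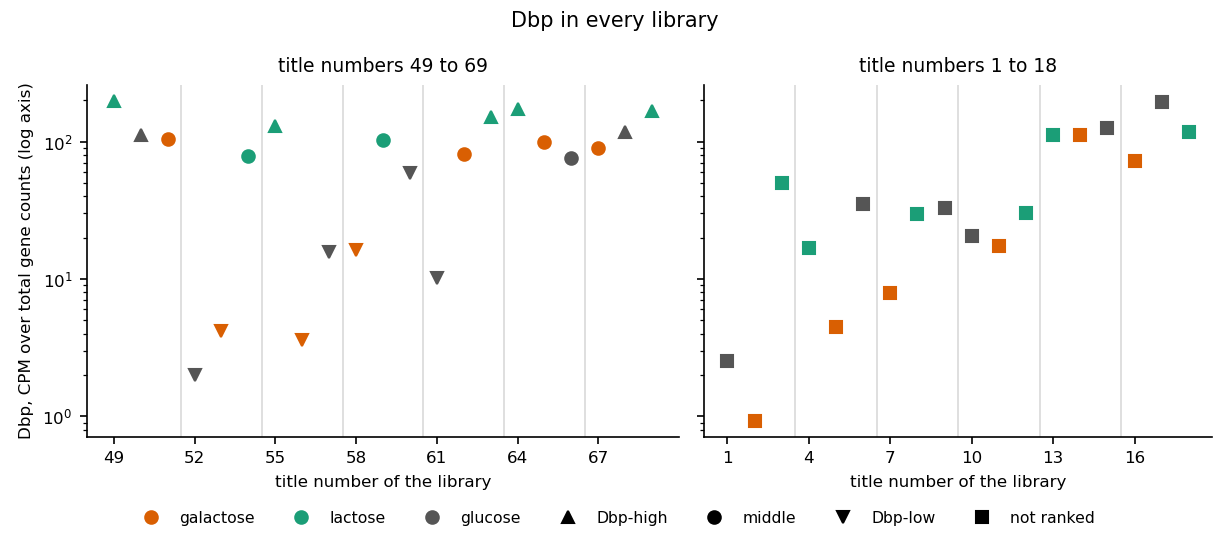
Dbp in CPM over total gene counts (log axis) against title number, for the second set (left) and the first set (right), with colour for diet, shape for class and grey lines between triplets. The 7 Dbp-low mice lie between 2.01 and 59.5 CPM, at title numbers 52 to 61, and in the first set values climb with title number.

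In the first set Dbp rose with title number, and in the second set no such trend passed the test. Log2 Dbp correlated with title number in the first set with Pearson r = 0.81 (permutation p = 4e-05, adjusted 0.00032) and Spearman rho = 0.81 (permutation p = 9e-05, adjusted 0.00072, n = 18). Without the 2 most distant title numbers, r was 0.76. Within diets of 6 first-set mice each, r was 0.97 for galactose (adjusted exact permutation p = 0.017), 0.70 for lactose (0.24) and 0.94 for glucose (0.029). The matching rho were 0.94, 0.66 and 0.77 (adjusted exact permutation p = 0.068, 0.34 and 0.27). In the second set r was 0.32 (permutation p = 0.16, adjusted 0.26) and rho was 0.19 (permutation p = 0.39, adjusted 0.59, n = 21), with r = 0.41 without the 2 most distant. There r within diets was 0.50 for galactose, 0.20 for lactose and 0.42 for glucose (lowest adjusted exact permutation p = 0.32, n = 7 each), and rho was 0.18, 0.18 and 0.36 (lowest 0.59). Adjustment covered 8 relations. Triplets held 47.7% of the variance of log2 Dbp in the second set (permutation p = 0.10) and 64.9% in the first set (permutation p = 0.019).

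Set side by side, Ciart, the period genes, Nr1d2 and the PAR bZIP factors were high in Dbp-high mice, and Arntl was low. Of 27 clock genes tested, 7 had every Dbp-high mouse above every Dbp-low mouse: Per1, Per2, Per3, Nr1d2, Ciart, Tef and Hlf. Arntl alone had every Dbp-high mouse below every Dbp-low mouse, and the other 19 overlapped. Over all 14657 genes other than Dbp, 1.27% lay wholly above and 0.894% wholly below. Arntl2 and Rorb, with at most 11 and 6 counts in a library, were not tested.

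Among the repressors, Per1, Per2 and Per3 encode the period proteins. Per3 had 10.3 to 26.1 CPM (median 16.1) in Dbp-high mice and 0.683 to 4.89 CPM (median 1.86) in Dbp-low mice. Per1 had 20.2 to 43.8 CPM (median 38.3) in Dbp-high and 5.94 to 17.0 CPM (median 10.5) in Dbp-low mice. Per2 had 9.28 to 35.4 CPM (median 23.1) in Dbp-high and 2.46 to 8.83 CPM (median 5.44) in Dbp-low mice, so that its classes lay close at glucose 7 (Dbp-high) and glucose 10 (Dbp-low). These CPM carry the trimmed mean of M-values (TMM) scaling of edgeR, as do the marker sums and Ifit3 levels above and, unless stated, all below. The Dbp values above, and the Dbp measure used for slopes below, are scaled to library totals alone.

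Ciart, also called CHRONO, binds ARNTL and represses it. It was near its lowest detectable level in Dbp-low mice, with 0 to 0.911 CPM (median 0.0966), and reached 1.94 to 12.0 CPM (median 9.08) in Dbp-high mice. Nr1d2, the REV-ERBβ repressor of Arntl, had 78.7 to 138 CPM (median 107) in Dbp-high and 33.9 to 61.7 CPM (median 47.3) in Dbp-low mice. Nr1d1, its close relative, had 144 to 276 CPM (median 197) in Dbp-high and 154 to 204 CPM (median 177) in Dbp-low mice. Its highest class median, 235 CPM, was that of the middle mice, and its lowest value of all 21 was in lactose 12 (Dbp-high). Counting with or without strand is not stated, so reads of Nr1d1 and of Thra, which overlap on opposite strands in the annotation, cannot be told apart, nor can those of Dbp and Sphk2, or of Tef and its antisense gene Gm17597.

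Cry2 and Cry1, the cryptochromes, behaved unlike each other. Cry2 had 10.8 to 39 CPM (median 25.5) in Dbp-high and 6.48 to 11.7 CPM (median 7.55) in Dbp-low mice, overlapping only at glucose 13 (Dbp-high) and glucose 10 (Dbp-low). Cry1 had 14.1 to 29.1 CPM (median 22.7) in Dbp-high, 9.83 to 22.7 CPM (median 15.3) in middle and 9.78 to 24.5 CPM (median 17.3) in Dbp-low mice, and thus overlapped across all 3 classes.

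Tef had 99.8 to 189 CPM (median 157) in Dbp-high mice, 77.0 to 107 CPM (median 93.6) in middle mice and 12.3 to 63.5 CPM (median 25.5) in Dbp-low mice. Hlf had 9.62 to 25.3 CPM (median 18.9) in Dbp-high and 2.00 to 8.35 CPM (median 4.06) in Dbp-low mice. Nfil3, the repressor that competes with them, had 1.64 to 3.42 CPM (median 2.30) in Dbp-high and 3.12 to 25.3 CPM (median 10.1) in Dbp-low mice. Only glucose 10, the Dbp-low mouse with the most Dbp, fell within the Dbp-high range of Nfil3.

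On the activating side, Arntl had 4.6 to 7.36 CPM (median 6.23) in Dbp-high mice, 7.79 to 14.1 CPM (median 8.69) in middle mice and 11.2 to 61.4 CPM (median 27.2) in Dbp-low mice. Npas2, which can take the place of CLOCK, had 20.0 to 37.0 CPM (median 32.9) in Dbp-high and 36.3 to 80.3 CPM (median 51.7) in Dbp-low mice, overlapping at glucose 10 (Dbp-low). Clock had 52.2 to 80.8 CPM (median 71.1) in Dbp-high and 67.5 to 81.5 CPM (median 69.7) in Dbp-low mice, and the classes overlapped throughout.

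**Figure D2:**
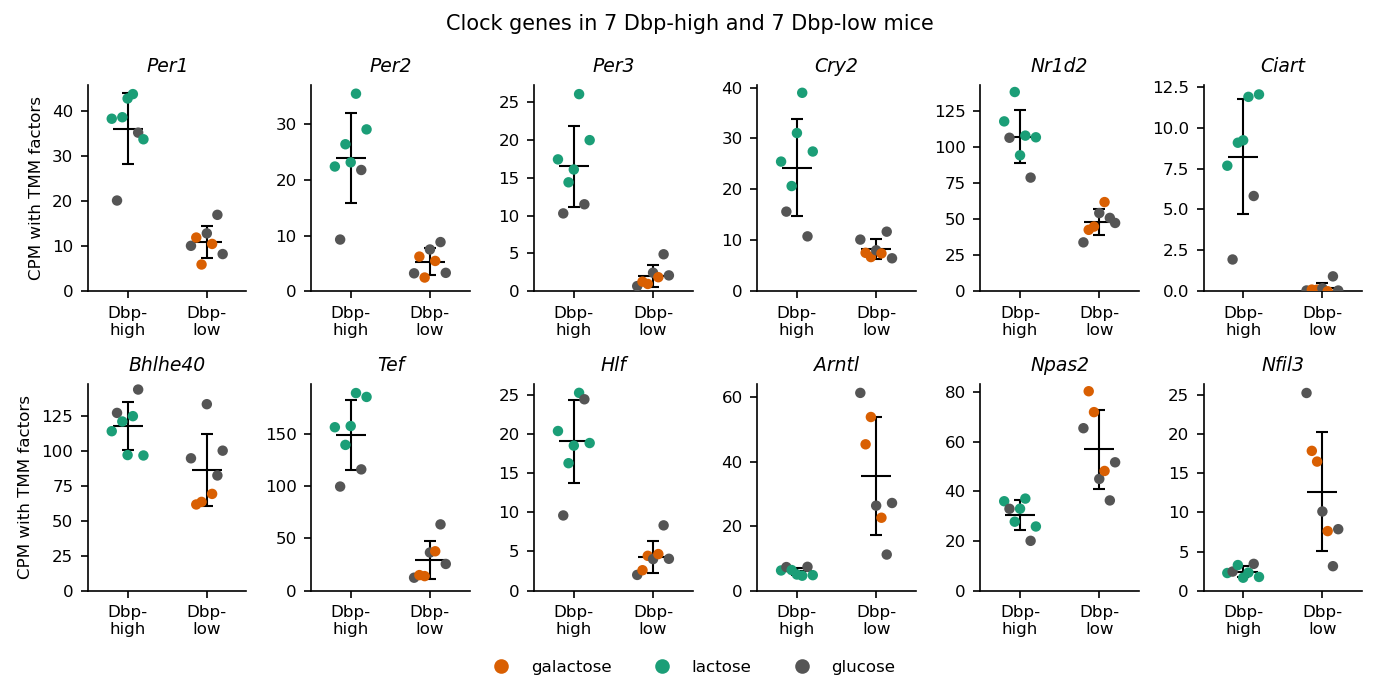
CPM with TMM factors of 12 clock genes in each Dbp-high mouse (left) and Dbp-low mouse (right), coloured by diet; bars give the mean and SD of 7 mice. Tef lies between 99.8 and 189 CPM in Dbp-high and between 12.3 and 63.5 CPM in Dbp-low mice; Arntl, Npas2 and Nfil3 are the 3 genes with the lower mean in Dbp-high mice.

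With diet as a covariate, no gene passed edgeR's quasi-likelihood test between the classes at an adjusted p of 0.05, a background of 0%, while 1463 of 14657 genes (9.98%) had an unadjusted p under 0.05. No lactose mouse was Dbp-low and no galactose mouse was Dbp-high, so in this fit the class difference rested on 2 Dbp-high and 4 Dbp-low glucose mice. Among these, Tef had 99.8 and 116 CPM in Dbp-high glucose mice, against 12.3, 25.5, 36.5 and 63.5 CPM in Dbp-low glucose mice. Its log2 fold change was 1.65 (SE 0.47, edgeR adjusted p = 0.323). Per3 had 10.3 and 11.5 CPM in Dbp-high glucose mice, against 0.683, 2.10, 2.45 and 4.89 CPM in Dbp-low glucose mice, a log2 fold change of 2.10 (SE 0.44, edgeR adjusted p = 0.179). Arntl had 7.29 and 7.36 CPM in Dbp-high glucose mice, against 11.2, 26.4, 27.2 and 61.4 CPM in Dbp-low glucose mice, a log2 fold change of -2.11 (SE 0.53, edgeR adjusted p = 0.275). In all 3 genes these glucose mice did not overlap. The share of all genes that separate 2 from 4 mice in this way is not given, so no conclusion is drawn from it. DESeq2 called 104 genes in the same design, 59 higher and 45 lower in Dbp-high mice, with 5 clock genes higher and 1 lower, and limma voom called 0.

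Without the covariate, 1239 genes passed (8.45%), 726 higher (4.95%) and 513 lower (3.50%) in Dbp-high mice, but class and diet then cannot be told apart. Of the clock genes, 10 were higher and 3 lower. Ciart had the largest log2 fold change of them, 5.34 (SE 0.59, edgeR adjusted p = 0.000553). Arntl had -2.57 (SE 0.31, edgeR adjusted p = 0.000553) and Tef 2.36 (SE 0.33, edgeR adjusted p = 0.00105).

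The same program was then read along Dbp as a continuous measure, with diet as a covariate, over all 21 mice of the second set, where each diet has its own range of Dbp. A slope is the log2 change of a gene for each doubling of Dbp. Along Dbp 936 genes passed (6.39%), 350 higher (2.39%) and 586 lower (4.00%) with more Dbp. Of the 27 clock genes, 9 rose and 3 fell, a larger share than over all genes. The median of all 12 called genes in the middle mice lay between the medians of the 2 classes. These genes were called over the same 21 mice, so this order follows largely from the call and is no separate test.

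In the PAR bZIP family, Tef had the smallest p of all genes, with a slope of 0.56 (SE 0.021, edgeR adjusted p = 1.85e-13), and Hlf had 0.49 (SE 0.061, adjusted p = 5.03e-05). Nfil3 had -0.55 (SE 0.045, adjusted p = 2.13e-07). Among repressors, Ciart had the steepest slope, 1.32 (SE 0.14, adjusted p = 1.30e-05). Per3 followed with 0.71 (SE 0.048, adjusted p = 6.96e-09), and Per2, Per1 and Nr1d2 had 0.39, 0.28 and 0.24 (adjusted p = 0.000460, 0.00250 and 1.33e-05). Cry2 had 0.13 (SE 0.038, adjusted p = 0.0493) and Bhlhe40, which binds E-boxes as a repressor, 0.11 (SE 0.031, adjusted p = 0.0317). Both calls depended on the fit. Of 28 alternative fits, most of them leaving out 1 library, Cry2 kept its call in 7 and Bhlhe40 in 19. Arntl had -0.55 (SE 0.032, adjusted p = 6.99e-10) and Npas2 -0.25 (SE 0.029, adjusted p = 2.46e-05).

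The other 15 clock genes did not pass in the second set. Clock had a slope of -0.02 (SE 0.025, adjusted p = 0.706), Cry1 -0.08 (SE 0.043, adjusted p = 0.337) and Nr1d1 0.07 (SE 0.034, adjusted p = 0.220). None of the 8 kinases and ubiquitin ligases that modify PER and CRY proteins passed, and their median slope was 0.00, as was that of all genes.

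**Figure D3:**
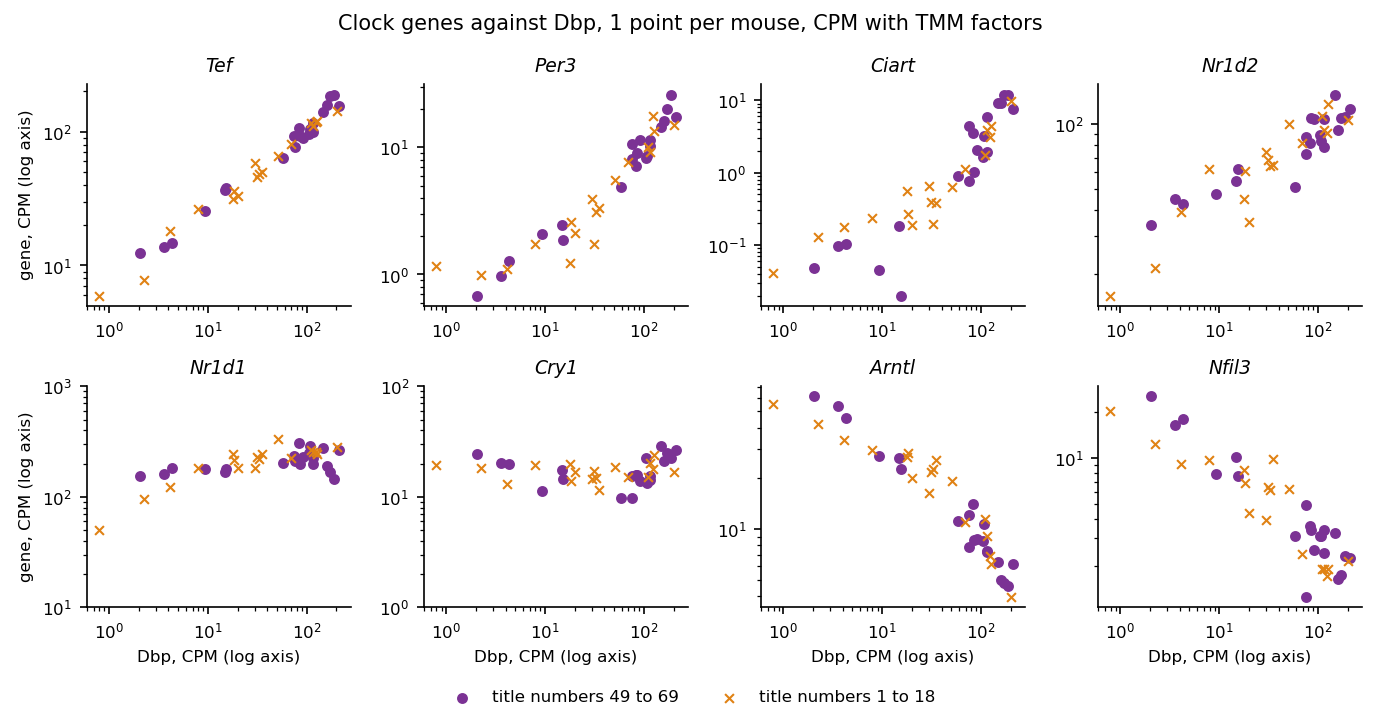
CPM with TMM factors of 8 clock genes against Dbp, both on log axes, 1 point per mouse, for the second set (circles) and the first set (crosses); a Ciart value of 0 is drawn at the bottom of its panel. Tef follows Dbp closely in both sets, Arntl and Nfil3 run downwards, and Cry1 stays between 9.78 and 29.1 CPM.

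The slopes were then read in the 18 mice of the first set, which the ranking did not use. Along Dbp 2727 genes passed there (18.6%), 1067 higher (7.28%) and 1660 lower (11.3%); scaled to library totals without TMM the split was 549 higher and 3023 lower. Of the clock genes 11 rose and 4 fell, and 11 were called in both sets with the same sign, 8 higher and 3 lower. The 8 include Cry2, whose second-set call was lost in most alternative fits. Bhlhe40 was called in the second set and not in the first, where its slope was 0.09 (adjusted p = 0.103). Nr1d1, Timeless, Csnk2a1 and Gsk3b were called in the first set and not in the second.

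Slopes of Tef were 0.56 in the second set and 0.63 (SE 0.020, edgeR adjusted p = 3.51e-13) in the first. Those of Per3 were 0.71 in the second and 0.66 (SE 0.071, adjusted p = 2.49e-05) in the first set. Ciart had 1.32 in the second set and 1.11 (SE 0.12, adjusted p = 2.11e-05) in the first, and Arntl -0.55 and -0.43 (SE 0.053, adjusted p = 8.73e-05). Nfil3 had -0.55 in the second set and -0.49 (SE 0.062, adjusted p = 0.000106) in the first, and Hlf 0.49 and 0.51 (SE 0.062, adjusted p = 6.50e-05). Nr1d1 had 0.07 in the second set and 0.26 in the first, and Timeless 0.08 and -0.21. Several first-set slopes shrank within triplets of title numbers and were no longer called: Nfil3 to -0.17 (edgeR adjusted p = 0.102), Hlf to 0.14 (0.275), Ciart to 0.46 (0.118), Per2 to 0.19 (0.199), Per1 to 0.14 (0.333) and Arntl to -0.18 (0.0767), and Npas2 turned to 0.034 (0.523). With title number as a covariate, Arntl, Npas2, Per1, Per2, Hlf and Nfil3 also lost their first-set calls.

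In 1 fit over all 39 mice, 64 genes (0.437%) had slopes that differed between the sets, and no clock gene was among them. Nr1d1 missed the threshold with a difference, second minus first set, of -0.19 (SE 0.048, edgeR adjusted p = 0.0539), Timeless with 0.26 (SE 0.068, adjusted p = 0.0545) and Nr1d2 with -0.13 (SE 0.037, adjusted p = 0.0595). With DESeq2, 982 genes were called, 687 with the higher and 295 with the lower slope in the second set, among them 1 and 3 clock genes. By library totals 829 were called (806 and 23), among them 1 and 1 clock gene. Diet by set as a further term left 0 (3046 at an unadjusted p under 0.05), as did leaving out the Ifit3-high libraries of the second set (710 at an unadjusted p under 0.05).

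**Figure D4:**
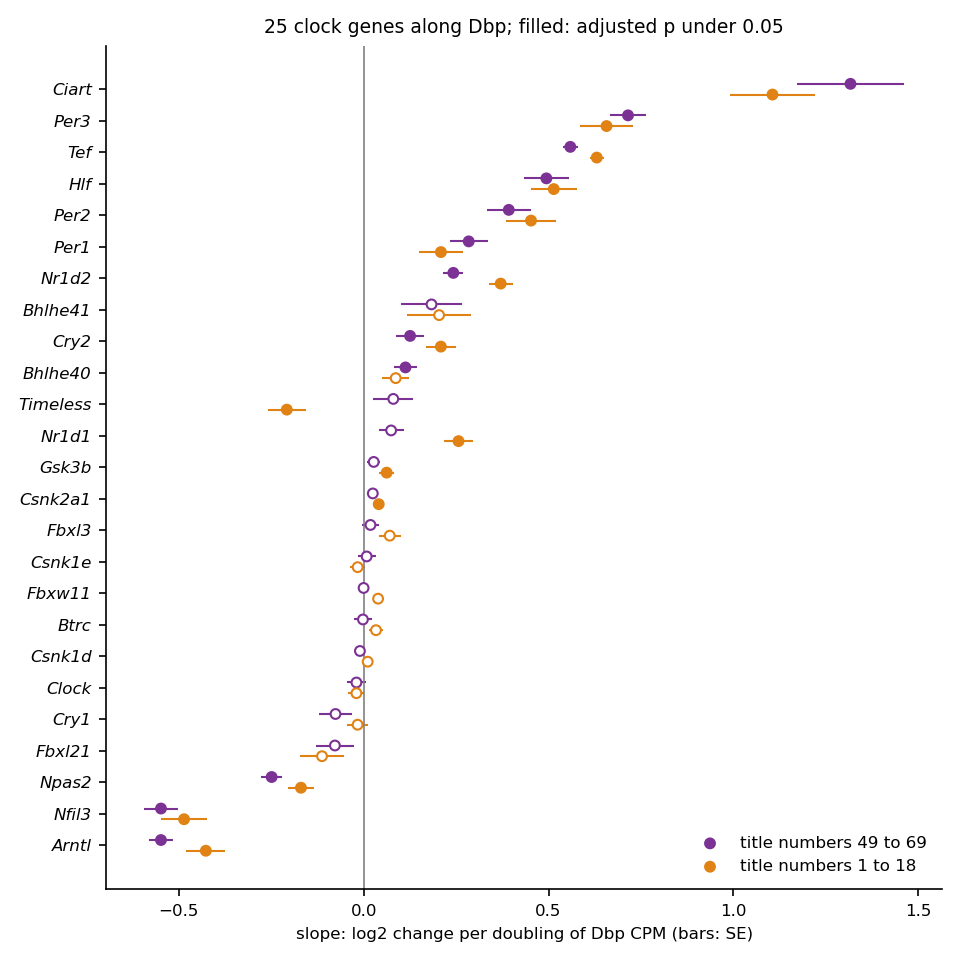
Slope of each of 25 clock genes along Dbp, as log2 change per doubling, in the second set (purple) and the first set (orange); bars are the SE and filled points have an edgeR adjusted p under 0.05. Ciart lies at 1.32 and 1.11, Arntl at -0.55 and -0.43, and the kinases and ligases lie near 0.

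Over all genes, the 11 clock genes included, 352 were called with the same sign in both sets, 194 higher and 158 lower, and 1 gene with opposite signs. These are 37.6% of the second-set calls and 12.9% of the first-set calls. Of the 936 second-set calls, 82.5% had the same sign in the first set, against 58.1% of all genes tested.

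Of the genes with the smallest p in the second set, those not in the clock list included Cipc, an inhibitor of CLOCK and ARNTL. Cipc had 26.8 to 39.2 CPM (median 29.7) in Dbp-high and 9.28 to 22.9 CPM (median 15.0) in Dbp-low mice, without overlap. Its slope was 0.29 (SE 0.024, edgeR adjusted p = 2.13e-07) in the second set and 0.19 (SE 0.031, adjusted p = 0.000832) in the first. Tns4, a tensin of cell adhesion sites, had 6.20 to 20.8 CPM (median 12.6) in Dbp-high and 1.41 to 8.2 CPM (median 4.90) in Dbp-low mice, and slopes of 0.59 (adjusted p = 2.50e-07) and 0.44 (adjusted p = 0.000170) in the second and first set. Slc20a1, a sodium-phosphate carrier, had 75.1 to 143 CPM (median 81.5) in Dbp-high and 14.9 to 49.4 CPM (median 25.7) in Dbp-low mice. Its slopes were 0.45 (adjusted p = 4.40e-06) in the second and 0.36 (adjusted p = 0.000164) in the first set, again with no overlap between classes. Within triplets of title numbers, the first-set slopes of Cipc and Slc20a1 shrank to 0.047 and 0.12 (edgeR adjusted p = 0.517 and 0.158). That of Tns4 stayed called, at 0.37 (adjusted p = 0.0194).

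Cdc42se2, an effector of CDC42, the threonine aldolase gene Tha1 and Socs3, a brake on cytokine signalling, also rose in both sets. Cdc42se2 had slopes of 0.15 in the second and 0.15 in the first set (adjusted p = 3.30e-05 and 4.42e-05). Tha1 had 0.22 in each (adjusted p = 7.17e-05 and 8.73e-05), and Socs3 0.33 and 0.34 (adjusted p = 9.44e-05 and 0.000106).

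Falling genes with the smallest p were Tmem252, Aagab, Nol4l, Cdcp1, St5, Scamp5, Baiap2l1, Fermt1 and Myo5b beside Arntl, Nfil3 and Npas2. Tmem252, which encodes a membrane protein, had 2.98 to 12.6 CPM (median 9.48) in Dbp-high and 17.0 to 72.3 CPM (median 42.3) in Dbp-low mice. Its slope was -0.52 (SE 0.050, edgeR adjusted p = 2.20e-06) in the second set and -0.47 (SE 0.066, adjusted p = 0.000207) in the first. Slopes of the other 8 were between -0.35 (St5) and -0.13 (Myo5b) in the second set. All 8 were negative in the first set too, where Scamp5 (adjusted p = 0.0514) and Myo5b (adjusted p = 0.243) did not pass. Fermt1, the integrin activator kindlin-1, was among the genes of smallest p in both sets, with -0.25 in the second and -0.21 in the first. It lost its call within triplets in both sets, and in the first set also with title number as a covariate.

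The first set named further genes by the same rule. Slc13a2, a citrate and succinate carrier, had 138 to 709 CPM (median 516) in Dbp-high and 22.8 to 171 CPM (median 74.7) in Dbp-low mice, which overlapped. Its slope was 0.42 (SE 0.057, edgeR adjusted p = 0.000144) in the second and 0.56 (SE 0.052, adjusted p = 6.40e-06) in the first set. Slc5a4a, a relative of the glucose cotransporters, had 132 to 228 CPM (median 175) in Dbp-high and 39.5 to 118 CPM (median 96.6) in Dbp-low mice, without overlap, and slopes of 0.21 (adjusted p = 0.0216) and 0.37 (adjusted p = 2.24e-06). Slc5a6, the carrier of biotin and pantothenate, had 0.20 (adjusted p = 0.00197) in the second and 0.24 (adjusted p = 2.11e-05) in the first set. Osbpl3, an oxysterol-binding protein gene, had 0.14 (adjusted p = 0.000188) and 0.20 (adjusted p = 2.24e-06). Of the falling ones, the kinase gene Stk38 had 37.5 to 60.9 CPM in Dbp-high and 84.9 to 131 CPM in Dbp-low mice, and -0.19 in each set (adjusted p = 0.000137 and 2.17e-05). These 5 kept their first-set calls with an enterocyte score, the mean standardised level of villus enterocyte markers, as a further covariate. Of the 24 first-set genes that this rule named, clock genes included, 10 lost their call with this score. The 10 were Slc7a15, Acsm5, Pacsin2, Exosc1, Tsr2, Mrps18b, Pofut1, Fermt1, Hsph1 and Dnajc2.

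Clock output genes, a list of 18 known outputs in several tissues, had 16 tested members. In the second set 4 rose and 2 fell (median slope 0.03), and in the first set 6 rose and 5 fell (median 0.02), against a median of 0.00 over all genes in each set. The shares of all genes that rose and fell were 2.39% and 4.00% in the second set and 7.28% and 11.3% in the first. Wee1, a kinase that holds cells before mitosis, had 20.9 to 38.5 CPM (median 31.6) in Dbp-high and 7.71 to 15.7 CPM (median 11.3) in Dbp-low mice, and slopes of 0.25 (edgeR adjusted p = 3.93e-06) and 0.15 (adjusted p = 0.00214) in the second and first set. Usp2, a deubiquitinase, had slopes of 0.28 (adjusted p = 0.000111) and 0.33 (adjusted p = 0.000107). Pdk4, which shuts pyruvate oxidation, fell with -0.52 (adjusted p = 0.00120) in the second and -0.32 (adjusted p = 0.00337) in the first set, although its classes overlapped, with 38.8 to 361 CPM in Dbp-high and 84.4 to 570 CPM in Dbp-low mice. Ypel2 fell as well, with -0.31 (adjusted p = 0.000191) and -0.27 (adjusted p = 0.00586).

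Of 20 detoxification genes linked to PAR bZIP factors, 1 rose and 1 fell in the second set (median -0.04), and 3 rose in the first (median 0.03). Over all genes 2.39% rose and 4.00% fell in the second set and 7.28% rose and 11.3% fell in the first, so these counts are near those of all genes. Abcb1a, the P-glycoprotein efflux pump, rose in both, with 0.17 (edgeR adjusted p = 0.00410) in the second and 0.16 (adjusted p = 0.00375) in the first set. Cyp2b10 fell in the second set, with -0.18 (adjusted p = 0.00740), and had 0.04 (adjusted p = 0.612) in the first.

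Among 18 nutrient carriers and lipid export genes with reported daily rhythm, 3 rose and 1 fell in the second set (median -0.01), and 7 rose and 1 fell in the first (median 0.07), against 2.39% and 4.00% of all genes in the second set and 7.28% and 11.3% in the first. Villus enterocyte markers moved with Dbp in the first set too, where 6 of 12 rose, and their part in these calls was not tested beyond adding them as a score. With that score Slc5a1 kept its first-set call, and Slc2a5, Slc15a1 and Sis lost theirs. Slc5a1 and Sis are themselves among the 12 markers of the score, so the fit cannot separate these genes from it. The score also rose with log2 Dbp in the first set (Pearson r = 0.83, n = 18). Slc5a1, the sodium-glucose cotransporter SGLT1, had 5026 to 7089 CPM (median 5954) in Dbp-high and 2365 to 4457 CPM (median 3863) in Dbp-low mice, without overlap. No lactose mouse was Dbp-low, so diet differed between these classes as well. With diet as a covariate the class difference of Slc5a1 did not pass (log2 fold change 0.73, SE 0.20, edgeR adjusted p = 0.311). Its slopes were 0.16 (SE 0.031, edgeR adjusted p = 0.00455) in the second and 0.22 (SE 0.019, adjusted p = 2.24e-06) in the first set. Slc2a5, the fructose carrier GLUT5, had 388 to 821 CPM (median 557) in Dbp-high and 209.9 to 375 CPM (median 317) in Dbp-low mice, and slopes of 0.19 (adjusted p = 0.00701) and 0.24 (adjusted p = 0.00113). Slc9a3, the sodium-proton exchanger NHE3, fell, with -0.19 (adjusted p = 0.000847) and -0.09 (adjusted p = 0.0264). The peptide carrier gene Slc15a1 had 0.14 (adjusted p = 0.0576) in the second set and rose in the first, with 0.27 (adjusted p = 0.000135).

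Heat shock and cold-shock genes had 16 members. In the second set 6 fell and none rose, and in the first 11 fell and none rose, with a median slope of -0.09 in each, against 4.00% of all genes lower in the second set and 11.3% in the first. Within triplets the second-set slopes of Hspa1a, Hspa1b and Hsph1 turned to 0.13, 0.056 and 0.036, and without the Ifit3-high libraries all 3 lost their calls. Hspa1a, an inducible HSP70, had 0.161 to 28.1 CPM (median 0.615) in Dbp-high and 0.938 to 38.1 CPM (median 3.53) in Dbp-low mice, so the classes overlapped. Its slopes were -0.98 (SE 0.19, edgeR adjusted p = 0.00443) in the second and -0.50 (SE 0.11, adjusted p = 0.00501) in the first set. Hsph1, an HSP110 chaperone, had -0.41 (adjusted p = 0.0361) and -0.37 (adjusted p = 8.10e-05). With the enterocyte score as a further covariate, Hsph1, Hsp90ab1, Hsp90aa1 and Ahsa1 lost their first-set calls.

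Of 20 fatty acid oxidation and ketogenesis genes, 4 fell and none rose in the second set, where all 20 slopes were negative (median -0.07), and 3 fell in the first (median -0.01). Over all genes 4.00% fell in the second set and 11.3% in the first, and 2.39% and 7.28% rose. Acot1, an acyl-CoA thioesterase, fell in both, with -0.42 (edgeR adjusted p = 0.0248) and -0.37 (adjusted p = 0.000373). Of 19 cholesterol synthesis genes tested, 2 rose in the second set (median 0.05) and 3 in the first (median -0.03), with Msmo1 at 0.09 (adjusted p = 0.0210) and 0.11 (adjusted p = 0.00132) and the sterol carrier Stard4 at 0.15 (adjusted p = 0.0209) and 0.13 (adjusted p = 0.0145). In 19 lipogenic and carbohydrate-response genes 1 fell in each set, G6pc in the second and Thrsp in the first. Of 5 tested bile acid signalling genes, Nr1h4, the bile acid receptor FXR, fell in both sets, with -0.23 (adjusted p = 0.000137) and -0.14 (adjusted p = 0.00341). Nr0b2 (SHP), its target, had -0.25 (adjusted p = 0.0135) in the second and -0.17 (adjusted p = 0.0525) in the first. Slc10a2, of the same list, went the other way in the first set, with 0.17 (edgeR adjusted p = 0.0376). The list thus had 1 higher and 1 lower in the first set, and 0 higher and 2 lower in the second.

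In the remaining lists few genes moved in the second set. Glucocorticoid-responsive genes had 1 higher (Klf9) and 1 lower (Angptl4) of 13, the unfolded protein response 1 higher (Trib3) of 16, and immediate early genes (12), MHC class II genes (7) and epithelial antimicrobial genes (6) none. In the first set these lists had 1 higher and 2 lower, 1 higher, 2 higher, none and 1 higher. With 6.39% of all genes called in the second set and 18.6% in the first, none of these counts stands far from those of all genes.

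Of 22 cell cycle and replication genes, 0 were called in the second set (median slope 0.09) and 16 fell in the first (median -0.29). For this and the next lists, the shares of all genes that rose and fell were 2.39% and 4.00% in the second set. They were 7.28% and 11.3% in the first. In the test of the difference itself, 0 of the 22 passed, with a median difference of 0.34 (second minus first set) and all 22 above 0. Stem cell markers likewise had 0 of 8 called in the second set (median 0.05) and 6 of 8 lower in the first (median -0.21). Villus enterocyte markers had 1 of 12 higher in the second set (median -0.01) and 6 of 12 higher in the first (median 0.08). With the enterocyte score as a further covariate, second-set calls numbered 1187, with 9 clock genes higher and 3 lower, and first-set calls 79, with 5 and 3. Of the 69 called first-set genes named by rule, clock genes included, 19 kept their call with this score and 50 lost it. Among those that lost it were Abcb1a, Wee1, Usp2, Pdk4, Nr1h4, Msmo1 and Stard4. Of the 64 genes whose slopes differed between sets, 57 had the higher slope in the second set.

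Interferon-stimulated genes fell along Dbp in the second set in 12 of 14 members (median slope -0.65), against 4.00% of all genes. Examples were Ifit3 with -0.83 (SE 0.22, edgeR adjusted p = 0.0248) and Rsad2 with -0.87 (SE 0.20, adjusted p = 0.0132). In the first set 1 of 14 rose and none fell (median -0.05), against 7.28% and 11.3% of all genes. The summed level of the 14 was 133 to 4578 CPM (median 232) in Dbp-high and 188 to 3627 CPM (median 1943) in Dbp-low mice. Without the 5 second-set libraries over 100 CPM of Ifit3, 0 of 14 were called (median 0.09), 16 mice remained, and 40 genes passed over all. Of the clock genes 7 higher and 2 lower remained called among these 40. A total of 20 of the 56 called genes named by rule kept their call, among them Tef, Per3, Arntl, Nfil3, Ciart, Cipc, Tns4, Wee1, Tmem252 and Nr1h4, and Slc20a1, Slc5a1 and the heat shock genes did not.

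**Figure D5:**
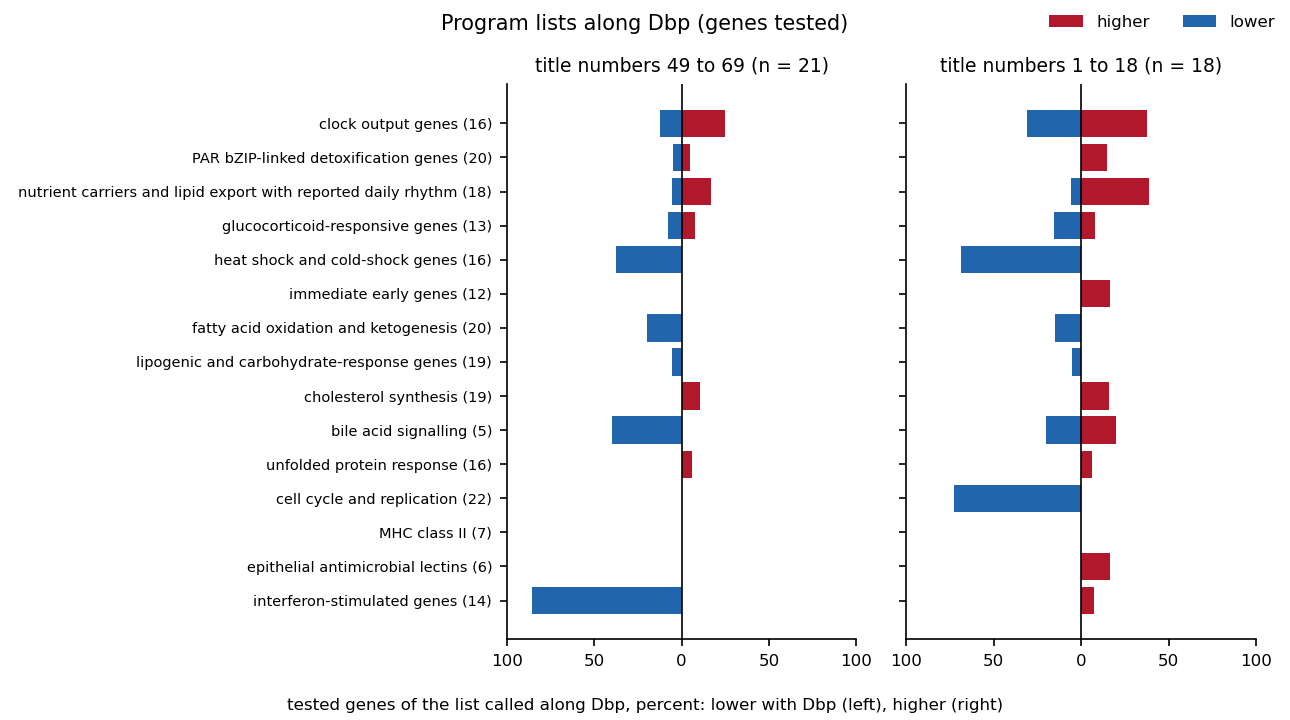
Share of the tested genes of each program list (number tested in brackets) called lower (left of 0, blue) or higher (right of 0, red) along Dbp at an edgeR adjusted p under 0.05, in the second set (left panel) and the first set (right panel). Interferon-stimulated genes are lower in 12 of 14 in the second set, and cell cycle and replication genes in 16 of 22 in the first. Heat shock and cold-shock genes are lower in 6 of 16 in the second set and in 11 of 16 in the first. Over all genes 4.00% were lower in the second set and 11.3% in the first.

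With title number as a further covariate, 318 genes passed in the second set, with 8 clock genes higher and 3 lower, and 1514 in the first, with 9 and 1. Within triplets, where neighbouring title numbers are compared with each other, 8 genes passed in the second set (0.0546%) and 1988 in the first (13.6%). The 8 were Tef, Per3, Cipc, Tns4, Slc20a1, Trib3 and Ciart, which rose, and Arntl, which fell. Tef had a slope of 0.54 (SE 0.031, edgeR adjusted p = 3.39e-07) in the second and 0.63 (SE 0.038, adjusted p = 5.05e-06) in the first set, and Per3 0.61 (adjusted p = 2.06e-06) and 0.48 (adjusted p = 0.0152). Arntl had -0.44 (adjusted p = 0.00129) in the second and -0.18 (adjusted p = 0.0767) in the first set. Cipc, Slc20a1 and Ciart were likewise not called within first-set triplets (slopes 0.047, 0.12 and 0.46), while Tns4 (0.37) and Trib3 (0.22) were. The second-set count also fell to 302 without glucose 8, to 418 without galactose 9, to 517 without galactose 8 and to 591 without galactose 13, and in each of these Tef, Per3, Ciart and Arntl kept their call.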

How the data were processed

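The authors deposited 1 table of raw read counts per gene and library, per the labels. Per the submitters' processing notes, FastQC, STAR and HTSeq were used with the GRCm39 build; versions and the strand setting are not given in the sources used here. RNA was column-purified and sequenced on a DNBSEQ platform, per the labels' protocols. Here the 5 summary lines of each file, 10.7% to 13.5% of reads in Dbp-high and 11.3% to 12.9% in Dbp-low libraries, were left out of totals and tests. Gene identifiers were matched to symbols for 52073 of 56980.

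Genes were filtered with filterByExpr and scaled by TMM over all 39 libraries (edgeR 4.0.16, R 4.3.3), which left 14657 genes besides Dbp. Classes were compared with edgeR's quasi-likelihood test, with diet as covariate, over 14 libraries. Slopes on log2 Dbp were fitted within each set, with Benjamini-Hochberg adjustment over all genes other than Dbp and a threshold of 0.05. Log2 CPM used a prior count of 2. limma was version 3.58.1 and DESeq2 1.42.0. Permutations used 100000 resamples, or all 3432 assignments. Libraries held 19685385 to 21350610 counts, and p-values measure only the spread between these libraries. Scripts were checked on simulated data.

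All clock list genes were considered, with the 12 called genes of smallest p in each direction (mean log2 CPM of at least 1, no predicted or clone names) and up to 4 called members of each program list. The members, markers and lists were chosen with earlier results of these data known. The slope over all second-set mice was listed as another setting of the class comparison, and the settings tried on it were chosen after seeing the data.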

Additional observations from a re-analysis of the deposited data

Results flagged for a closer look

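In the Dbp-high and Dbp-low classes, 104 sets of 7 values were checked for a sample far from the others, by the gap to its nearest neighbour over the range (Dixon's test), and 10 were found. Chance alone marks about 1 set in 20. Glucose 7 had the lowest Per1 of the Dbp-high mice (20.2 CPM, next 33.8). Glucose 10, the Dbp-low mouse with the most Dbp, had the highest Per3 (4.89 CPM, next 2.45), Ciart (0.911 CPM, next 0.185) and Hlf (8.35 CPM, next 4.67) of its class. Galactose 8 (Dbp-low) had 5.82% mitochondrial counts (next 4.06%) and 636 CPM of B and plasma cell markers (next 1430 CPM). Glucose 9 (Dbp-low) had 3716 CPM of Paneth cell markers (next 1550 CPM). Among Dbp-high mice, glucose 13 had 629 CPM of pancreas markers (next 34.5 CPM), glucose 7 had 8.69 CPM of skeletal muscle markers (next 5.25 CPM), and lactose 9 had 4578 CPM of interferon-stimulated genes (next 400 CPM).

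The slopes of 64 genes along Dbp differed between the second and the first set in a test of the difference itself (edgeR quasi-likelihood). Among them 1 gene of the lists was found, the stem cell marker Smoc2, with a difference of 0.37 (0.11 in the second set and -0.30 in the first, edgeR adjusted p = 0.0429).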

How the results depend on the processing

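The class comparison with diet called 0 genes under limma voom (1518 at an unadjusted p under 0.05), other scalings, added title number, triplet or tissue terms, and without the Ifit3-high libraries. It called 104 with DESeq2, 8 without a filter beyond 10 counts, 1239 without diet, 936 as a slope over 21 mice, and 8 as that slope with triplets. Leaving out 1 library gave 0 to 4 (4 without glucose 7, 1 without glucose 10). The second-set slope called 318 genes with title number, 8 with triplets, 40 without Ifit3-high libraries, and 302 to 1179 without 1 library. The first-set slope called 1514 with title number, 1117 with a tissue score, 79 with an enterocyte score, and 961 (without glucose 1) to 3369 without 1 library, with 1493 without galactose 1 and 1526 without galactose 5. By library totals its split was 549 higher and 3023 lower, against 1067 and 1660. The difference between sets was called in 829 genes by library totals, in 982 with DESeq2 (687 higher, 295 lower, against 57 and 7), and in 0 without Ifit3-high libraries or with diet by set added. Causes of these changes were not tested.

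Signs turned in some slopes, and none of the turned ones passed the threshold. In the first set these were Npas2 (0.00098 with title number, 0.034 with triplets) and Clock (0.034 and 0.050), and Cry1, which ran between -0.026 and 0.0055 without 1 library (0.0055 without galactose 1). With the enterocyte score they were Timeless (0.0028), Bhlhe40 (-0.025), Cyp3a25 (-0.037), Zfp36 (-0.018), Junb (-0.036), Mcm7 (0.059), Tyms (0.15), Mcm3 (0.19), Mcm4 (0.13) and Gbp2 (-0.019). In the second set, triplets turned Hspa1a (0.13), Hspa1b (0.056) and Hsph1 (0.036), and leaving out Ifit3-high libraries turned Cry1 (0.14), Rsad2 (0.011) and Ifit2 (0.058). By CPM over total counts, the class differences of enteric neuron and glia markers (-0.774) and adipocyte markers (-1.48) turned, and that of smooth muscle markers (-106) passed (adjusted p = 0.0437, exact permutation). Tef, Per3, Ciart and Arntl kept their second-set calls in all 28 alternatives, and Tef, Per3 and Nr1d2 their first-set calls in all 25. Cry2 kept its second-set call in 7 of 28 and Bhlhe40 in 19 of 28. No paired analysis was possible because the labels give no replicate numbers to pair mice by; the block used above is the triplet of neighbouring title numbers.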
